A study of Mus musculus with 12 samples.

Results

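A set of 50 genes of mitosis is described here, named by symbol and found by their Ensembl identifiers in the table of expression values that the authors deposited. All 50 of the 50 named genes were among the 12591 genes in that table. They were listed by function and not by a threshold on expression, with earlier results of these data known. They encode the proteins of the spindle assembly checkpoint (5 genes), the mitotic kinases with the chromosomal passenger complex (6), the CENP proteins of the centromere (8), the outer kinetochore (5), the mitotic kinesins (8), the factors of spindle assembly and cytokinesis (6), the regulators of anaphase onset (5), and condensin with topoisomerase II (7). All are annotated as protein-coding.

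The cells were fibroblasts from embryos of C57 PER2::LUC mice, heterozygous for a knock-in that fuses luciferase to the circadian clock protein PER2, and they were used as an immortalized line. Confluent dishes, in which contact inhibition limits division, were kept for 24 h in control medium (CTL), with 10 μM of the AHCY inhibitor Deazaneplanocin A (DZ), with 1 mM adenine, or with 1 mM S-adenosylmethionine (SAM), and all 4 groups, CTL included, contained 3.3 mM HCl. AHCY removes S-adenosylhomocysteine, the product and inhibitor of methyltransferases that use SAM, and the study asked whether adenine and SAM change the transcriptome as inhibition of this enzyme does. For confluent cells the paper reports neither a cell cycle effect nor cell death with SAM. At low confluence, it reports that 1 mM SAM stunted growth and that cell numbers then declined. Polyadenylated RNA was sequenced from 3 dishes per group, 12 libraries in all, and the dishes are replicates of a single cell line, so that p-values measure the spread between dishes.

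Most mitotic genes are transcribed in late S phase, G2, and M phase, and are kept low in resting cells by a repressor complex called DREAM. DREAM binds the CHR element of their promoters, a site that MYBL2 and FOXM1 also use in dividing cells, often beside CCAAT boxes bound by the transcription factor NF-Y. In mitosis, kinetochores assemble on centromeric chromatin and attach chromosomes to spindle microtubules, the checkpoint delays anaphase until all are attached, and condensin compacts the chromosomes. In RNA from whole dishes, more cells in these phases and more mRNA in each cell cannot be told apart.

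Reads on the listed genes numbered between 45649534 and 56789090 per library, and the lowest member in any library, Cenpm in a CTL dish, still had 112 reads. Expression is given as log2 CPM, the log2 of reads scaled to a common library size (CPM) with the authors' normalized library sizes. The spread between replicate libraries exceeded counting noise (chi-square over all genes divided by its degrees of freedom, 4.76 to 19.1, with the highest value for SAM replicates 1 and 3). The fibroblast markers were present, with 9 of 12 in the table and Dcn, Lum, and Fap not in it. Their summed level was 21990 to 22431 CPM in CTL, 27815 to 28401 in DZ, 24660 to 26943 in adenine, and 16381 to 17716 in SAM. Fn1, which encodes fibronectin, was the highest of these markers in CTL (mean log2 CPM 13.56), and its log2 fold change under SAM was -1.58. In SAM its mean (11.99) was below that of Col1a2 (12.31). The other 8 markers were called higher under SAM (median of all 9, 0.43). Under adenine 6 of the 9 were called higher, and Fn1 was called lower (-0.43). Of 8 leukocyte markers 1 was in the table, Cd68, at 2.99 to 3.96 CPM in CTL, 2.70 to 3.75 in DZ, 10.79 to 12.31 in adenine, and 15.54 to 17.63 in SAM, and none of the 5 endothelial or 6 epithelial markers was. Whether these shifts bear on the mitotic genes was not tested.

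Together, the mitotic genes rose strongly under adenine and SAM and little under DZ. Their summed level was 1736.1, 1660.5, and 1709.5 CPM in the CTL dishes and 1720.9, 2012.7, and 1965.8 CPM in the DZ dishes. It was 4657.7, 4667.3, and 4858.9 CPM in the adenine dishes and 5947.8, 5972.3, and 5772.4 CPM in the SAM dishes. Every adenine dish was thus above every CTL and DZ dish, and every SAM dish above every adenine dish, whereas DZ overlapped CTL through DZ replicate 1. The group means were 1702 ± 38.3 CPM in CTL, 1899.8 ± 157 in DZ, 4728 ± 113 in adenine, and 5897.5 ± 109 in SAM (SD, n = 3), which are 1.12, 2.78, and 3.47 times CTL for the treatments. As a share of the reads on listed genes, the mitotic genes went from between 0.16% and 0.168% in CTL to between 0.608% and 0.625% in SAM.

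Against CTL, 49 of the 50 members rose under adenine and none fell (limma with Benjamini-Hochberg adjustment over all genes, FDR below 0.01), where 61.6% of all genes were called, 30.6% higher and 31% lower. Under SAM all 50 rose, where 69.3% of all genes were called, 33.7% higher and 35.7% lower. Under DZ 15 rose, none fell, and 35 were not called, where 45.9% of all genes were called, 22.6% higher and 23.4% lower. The median log2 fold change of the members was 1.66 under adenine, 2.07 under SAM, and 0.12 under DZ, beside -0.003, -0.015, and -0.006 over all genes. The 3 comparisons share the CTL dishes. Leaving out any 1 dish of the groups compared, SAM replicate 3 included, left 49 members called under adenine and 50 under SAM.

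Most of these rises were large. A called rise of at least 1 on the log2 scale was seen in 47 members under adenine and in 48 under SAM, whereas 5.81% and 7.46% of all genes rose so far. No member reached that size under DZ, where 1.18% of all genes did. A rise of at least 2 was reached by 6 members under adenine (Cenph, Cenpm, Nuf2, Spc24, Knl1, and Espl1) and by 27 under SAM, against 0.945% and 1.76% of all genes. All 3 adenine dishes and all 3 SAM dishes were above all 3 CTL dishes for each of the 50 members, and such a separation was found in 37% of all genes under adenine and 37.6% under SAM. Under DZ it was found in 14 members, against 31.8% of all genes, and Pttg1 was the 1 member whose DZ dishes were all below CTL.

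**Figure D1:**
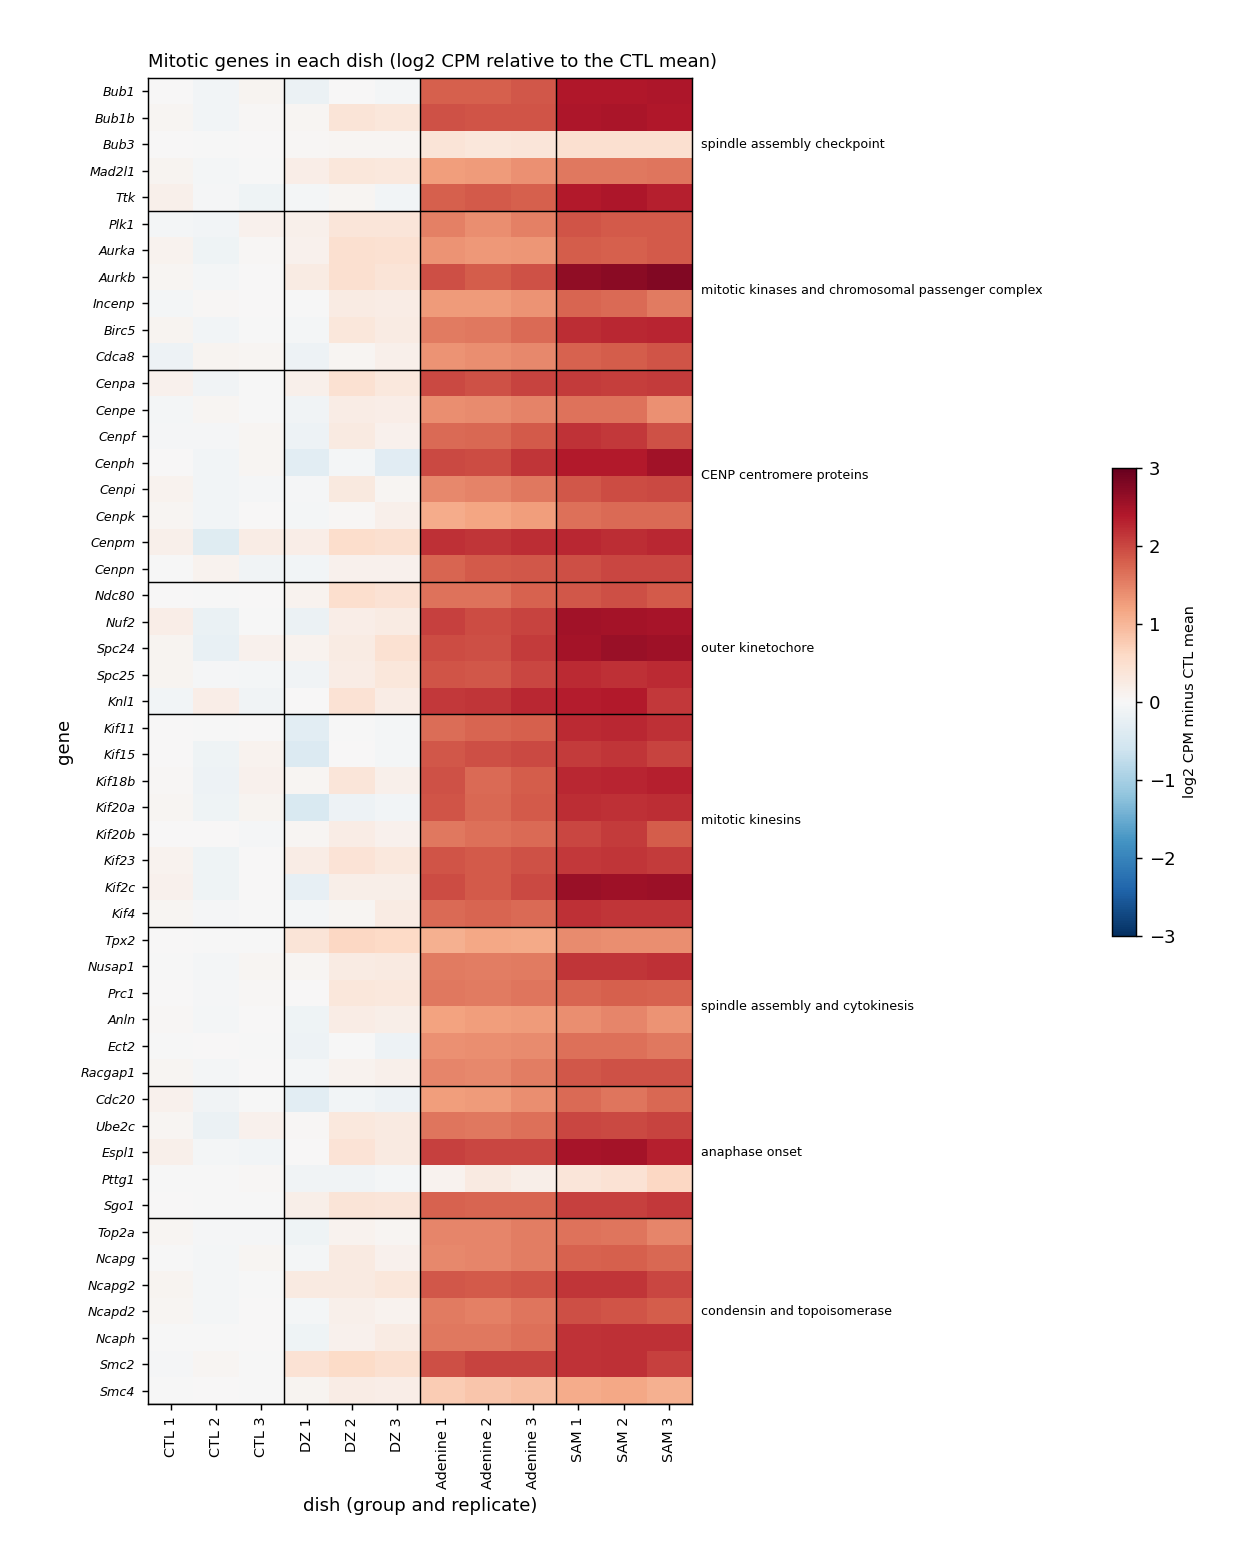
Log2 CPM of each of the 50 mitotic genes (vertical axis) in each of the 12 dishes (horizontal axis), as the difference from the mean of the 3 CTL dishes, with the colour scale running from -3 to 3. The adenine and SAM columns are red for nearly every gene, Bub3 and Pttg1 stay pale, and the DZ columns lie close to CTL.

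The promoters are shown because the members moved together. Windows from 250 bases before to 50 bases after the RefSeq start, on the build GRCm38.p6 and not the GRCm39 of the expression table, were found for 44 of the 50 members, and those of Aurkb, Incenp, Kif20a, Smc4, Spc24, and Tpx2 were not analysed here. The CHR element was searched as TTTGAA and the CCAAT box as CCAAT, on both strands, and these motifs do not overlap each other. TTTGAA was found in 31 of the 44 members (70.5%), in 14.1% of 8821 genes of the table, and in 17.9% of 32851 windows of the same length. CCAAT was found in 31 of the 44 (70.5%), in 43.8% of the genes of the table, and in 37.4% of all windows. Both stood in the same window in 24 members (54.5%) and in 5.9% of the genes of the table. The TTTGAA matches lay close to the start, 33 of 41 (80.5%) within 50 bases of it, where 25.3% of 6737 matches in all windows did. These are matches of letters, not sites shown to be bound.

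The 120 bases before the start are printed for 8 members, with matches of either motif, on either strand, in capitals, 5′ to 3′ on the strand of the gene. The first 6 were chosen, after the positions had been seen, because a TTTGAA match stands before the start, and Bub3 and Pttg1 because they rose least. They are Cdc20 (chr4:118437344-118437463, minus strand), Kif11 (chr19:37376262-37376381, plus), Espl1 (chr15:102296173-102296292, plus), Ube2c (chr2:164769809-164769928, plus), Top2a (chr11:99024190-99024309, minus), Ncapg (chr5:45669805-45669924, plus), Bub3 (chr7:131560250-131560369, plus), and Pttg1 (chr11:43425982-43426101, minus), all on GRCm38.p6.
Cdc20: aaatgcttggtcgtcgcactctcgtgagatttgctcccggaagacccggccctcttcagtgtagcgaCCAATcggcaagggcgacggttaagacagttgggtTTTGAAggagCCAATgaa
Kif11: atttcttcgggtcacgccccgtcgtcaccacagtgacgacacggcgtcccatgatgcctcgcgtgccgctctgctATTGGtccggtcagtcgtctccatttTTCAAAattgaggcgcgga
Espl1: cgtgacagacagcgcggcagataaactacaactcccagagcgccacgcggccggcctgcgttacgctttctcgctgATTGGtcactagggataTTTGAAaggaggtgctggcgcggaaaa
Ube2c: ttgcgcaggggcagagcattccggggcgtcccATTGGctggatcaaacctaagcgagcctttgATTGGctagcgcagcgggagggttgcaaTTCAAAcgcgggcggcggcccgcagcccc
Top2a: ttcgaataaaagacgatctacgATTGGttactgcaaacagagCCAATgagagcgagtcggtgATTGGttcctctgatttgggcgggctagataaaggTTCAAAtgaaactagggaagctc
Ncapg: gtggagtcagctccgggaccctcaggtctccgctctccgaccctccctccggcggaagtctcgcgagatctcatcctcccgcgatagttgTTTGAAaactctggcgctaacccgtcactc
Bub3: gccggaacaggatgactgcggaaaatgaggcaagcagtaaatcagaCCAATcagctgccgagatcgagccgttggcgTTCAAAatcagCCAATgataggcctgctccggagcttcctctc
Pttg1: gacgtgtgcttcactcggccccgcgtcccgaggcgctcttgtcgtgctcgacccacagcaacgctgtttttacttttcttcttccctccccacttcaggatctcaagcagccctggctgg
In Cdc20, Kif11, Espl1, Ube2c, Top2a, and Bub3 the printed stretch held a TTTGAA match with a CCAAT box 5′ of it, in either orientation. In Ncapg the TTTGAA stood alone in the printed stretch, and a CCAAT match lay further 5′ in its window, at -176. Other members with a TTTGAA match before the start were not printed. Of these, Prc1, Cenpn, Ncapd2, Ect2, and Smc2 also held CCAAT in the window, and Kif2c, Kif15, and Ncapg2 did not. In the whole Pttg1 window neither motif was found, as in those of Mad2l1, Birc5, Nuf2, Nusap1, and Ncaph.

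Members rose with and without the motif. The median log2 fold change under SAM was 2.01 for the 31 members with TTTGAA and 2.17 for the 13 without it, and under adenine the order was the other way, 1.71 and 1.61. Bub3 held both motifs and rose by 0.49 under SAM. The 6 members with neither, Nuf2, Birc5, Ncaph, Nusap1, Mad2l1, and Pttg1, rose by 2.50, 2.25, 2.19, 2.17, 1.59, and 0.47. The medians under SAM were 2.00 for the 24 members with both and 2.18 for those with neither. Variants of the motifs were not searched, and a role of these elements in the rises was not tested. Among genes of the table that are no member, 44.8% of the 496 with both motifs were called higher under SAM, with a median log2 fold change of 0.11, against 32.4% of the 4340 with neither, with a median of -0.021. The share was 33.6% for the 607 with TTTGAA only (median -0.012) and 40.1% for the 3227 with CCAAT only (median 0.062). Genes that held both motifs, but only in different windows, are in none of these classes. The genes that are no member include the further lists of mitotic and replication genes described below, which were not taken out.

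**Figure D2:**
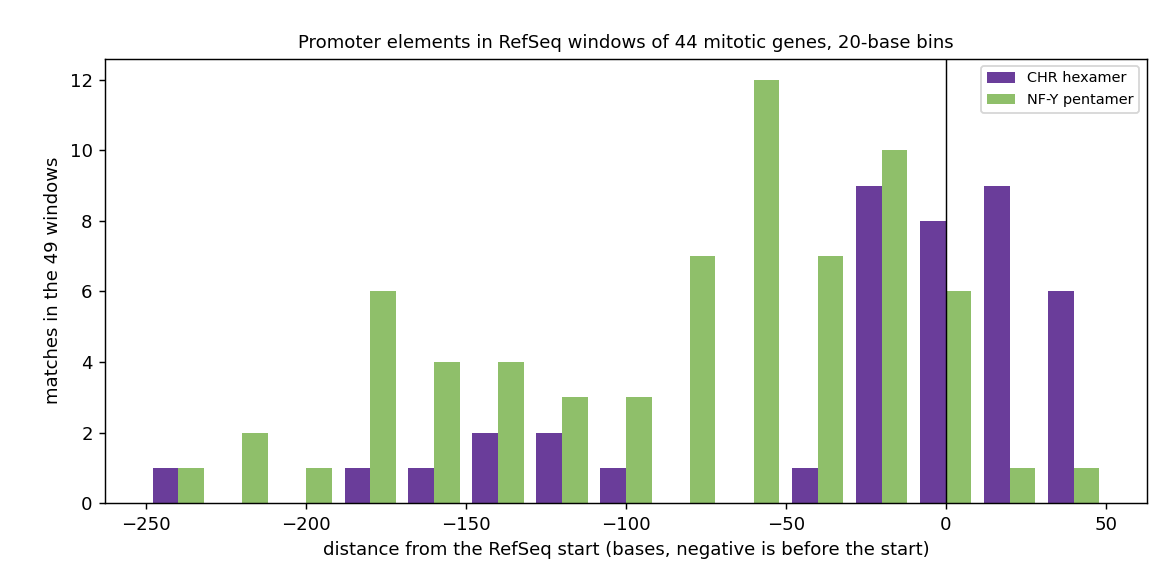
Number of matches (vertical axis) of the CHR hexamer and the NF-Y pentamer in the 49 RefSeq windows of 44 members, in bins of 20 bases by distance from the start in bases (horizontal axis). The CHR matches gather around the start and the NF-Y matches lie mostly before it.

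The spindle assembly checkpoint holds back anaphase until every kinetochore is attached, and its kinases BUB1 and TTK and its inhibitors of anaphase BUBR1 (Bub1b), BUB3, and MAD2 (Mad2l1) were all measured. All 5 genes rose under adenine and all 5 under SAM, with medians of 1.81 and 2.37 on the log2 fold change scale. Of these, Bub1b and Mad2l1 rose under DZ. Bub1b (chr2:118428684-118472076 on GRCm39) had log2 CPM of 5.04, 4.92, and 5.02 in CTL and 5.04, 5.38, and 5.33 in DZ. In adenine it had 6.89, 6.87, and 6.89, and in SAM 7.41, 7.43, and 7.39. The adenine and SAM dishes stood clear of CTL and of each other, whereas the DZ dishes overlapped CTL. Its log2 fold change was 1.89 ± 0.065 (SE, limma, adjusted p = 1.17e-12) under adenine, 2.42 ± 0.065 (SE, limma, adjusted p = 3.67e-14) under SAM, and 0.26 ± 0.065 (SE, limma, adjusted p = 0.00341) under DZ. The DZ call was lost with no variance trend, with a separate model per contrast, and without DZ replicate 2, DZ replicate 3, or CTL replicate 2.

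Bub3 (chr7:131161880-131178553) rose least of the checkpoint genes. Its log2 CPM was 6.42, 6.42, and 6.43 in CTL and 6.46, 6.49, and 6.49 in DZ. It was 6.81, 6.76, and 6.79 in adenine and 6.91, 6.91, and 6.92 in SAM. The 4 groups did not overlap at all, in the order CTL, DZ, adenine, SAM, although the steps were small. On the log2 scale, the fold change was 0.36 ± 0.027 (SE, limma, adjusted p = 8.07e-09) under adenine and 0.49 ± 0.027 (SE, limma, adjusted p = 1.41e-10) under SAM, while that under DZ was not called (0.05 ± 0.027 (SE, limma, adjusted p = 0.103)). BUB3 is also known to act outside mitosis, in the splicing of mRNA. Bub1, Mad2l1, and Ttk rose by 2.41, 1.59, and 2.37 under SAM.

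The kinases PLK1 and Aurora A (Aurka) drive centrosome maturation and spindle assembly, and Aurora B (Aurkb) with INCENP, survivin (Birc5), and borealin (Cdca8) forms the chromosomal passenger complex that corrects wrong attachments. All 6 genes rose under adenine (median log2 fold change 1.43) and under SAM (1.84), and Plk1, Aurka, and Aurkb rose under DZ. Aurkb (chr11:68936467-68944764) had the largest rise of any member under SAM. The log2 CPM values were 3.69, 3.58, and 3.66 in CTL and 3.88, 4.12, and 4.02 in DZ. It was 5.58, 5.46, and 5.55 in adenine and 6.29, 6.35, and 6.42 in SAM, so that no dish of a group overlapped another group. The log2 fold change was 1.89 ± 0.061 (SE, limma, adjusted p = 6.05e-13) under adenine, 2.71 ± 0.061 (SE, limma, adjusted p = 5.22e-15) under SAM, a 6.56-fold rise, and 0.36 ± 0.061 (SE, limma, adjusted p = 0.000118) under DZ.

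Incenp (chr19:9846569-9876924), the scaffold of the complex, rose least of this group. By dish, its log2 CPM was 5.88, 5.96, and 5.95 in CTL and 5.92, 6.17, and 6.17 in DZ. In adenine it was 7.20, 7.22, and 7.28, and in SAM 7.68, 7.63, and 7.50. The adenine and SAM dishes were apart from CTL and from each other, and 1 DZ dish lay within the CTL range. On the log2 scale, the fold change was 1.30 ± 0.059 (SE, limma, adjusted p = 2.23e-11) under adenine and 1.67 ± 0.059 (SE, limma, adjusted p = 7.54e-13) under SAM, and under DZ it was not called (0.16 ± 0.059 (SE, limma, adjusted p = 0.0348)).

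The CENP proteins mark the centromere and build the inner kinetochore, among them the histone H3 variant CENP-A, and CENP-E and CENP-F act at the outer face. All 8 genes rose under adenine (median log2 fold change 1.78) and under SAM (2.03), and under DZ only Cenpa was called, at 0.31. Cenph (chr13:100896173-100912422), a subunit of the constitutive centromere network, had log2 CPM of 2.83, 2.75, and 2.88 in CTL and 2.51, 2.75, and 2.47 in DZ. It reached 4.80, 4.78, and 4.96 in adenine and 5.20, 5.20, and 5.35 in SAM. Under DZ its value was the lowest of the 50 members, with 1 DZ dish inside the CTL range, and it was not called (-0.24 ± 0.08 (SE, limma, adjusted p = 0.0184)). The fold change on the log2 scale was 2.03 ± 0.08 (SE, limma, adjusted p = 4.69e-12) under adenine and 2.43 ± 0.08 (SE, limma, adjusted p = 3.49e-13) under SAM.

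Cenpk (chr13:104365051-104388900), of the same network, had the smallest mean of the adenine and SAM log2 fold changes among the CENP genes, although Cenpe rose less under SAM (1.54). Its log2 CPM was 3.13, 2.99, and 3.09 in CTL and 3.01, 3.11, and 3.21 in DZ. It was 4.19, 4.25, and 4.32 in adenine and 4.72, 4.76, and 4.76 in SAM. The first pair of groups overlapped, and the other two were apart from them and from each other. The log2 fold change was 1.19 ± 0.067 (SE, limma, adjusted p = 2.65e-10) under adenine, 1.68 ± 0.067 (SE, limma, adjusted p = 2.68e-12) under SAM, and, not called, 0.04 ± 0.067 (SE, limma, adjusted p = 0.594) under DZ. Cenpk overlaps Ppwd1 on the opposite strand, which rose by 0.50 under SAM. Cenpn overlaps Cmc2 in the same way, and both rose under SAM, by 1.99 and 1.43. The strand setting of the authors' counting is not given in the sources used here, so reads in such overlaps could belong to either gene.

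The outer kinetochore binds microtubules through the NDC80 complex (Ndc80, Nuf2, Spc24, and Spc25), and KNL1 carries the checkpoint proteins. All 5 genes rose under adenine (median log2 fold change 2.00) and SAM (2.29), and under adenine Knl1 rose by 2.18, as Cenpm did, the highest values among the members. Spc24 (chr9:21666727-21671791) had log2 CPM of 2.87, 2.56, and 2.90 in CTL and 2.89, 3.02, and 3.23 in DZ. It was 4.75, 4.71, and 4.88 in adenine and 5.28, 5.36, and 5.32 in SAM. CTL and DZ overlapped, and adenine and SAM did not overlap any other group. Its log2 fold change was 2.00 ± 0.095 (SE, limma, adjusted p = 3.46e-11) under adenine, 2.54 ± 0.095 (SE, limma, adjusted p = 1.34e-12) under SAM, and, not called, 0.27 ± 0.095 (SE, limma, adjusted p = 0.0244) under DZ.

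Ndc80 (chr17:71803093-71833860) rose least of the outer kinetochore genes and was its only member called under DZ. The log2 CPM values were 4.05, 4.01, and 4.03 in CTL and 4.13, 4.53, and 4.46 in DZ. It was 5.65, 5.67, and 5.79 in adenine and 5.88, 5.97, and 5.88 in SAM. Each group stood above the one before it, with DZ replicate 1 closest to CTL. On the log2 scale, the fold change was 1.67 ± 0.08 (SE, limma, adjusted p = 3.92e-11) under adenine, 1.88 ± 0.08 (SE, limma, adjusted p = 6.32e-12) under SAM, and 0.34 ± 0.08 (SE, limma, adjusted p = 0.00182) under DZ, a call lost without DZ replicate 2 or DZ replicate 3.

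Mitotic kinesins slide, cross-link, or shorten spindle microtubules: KIF11 pushes the poles apart, KIF2C depolymerizes microtubule ends, and KIF23 and KIF20A act in cytokinesis. All 8 genes rose under adenine (median log2 fold change 1.81) and SAM (2.19), and Kif23 alone was called under DZ, at 0.32. Kif2c (chr4:117016830-117039836) had log2 CPM of 3.65, 3.40, and 3.54 in CTL and 3.29, 3.71, and 3.70 in DZ. It was 5.49, 5.36, and 5.52 in adenine and 6.12, 6.07, and 6.08 in SAM. Among the DZ dishes, 1 lay below and 2 above the CTL range, and adenine and SAM were clear of both. The log2 fold change was 1.93 ± 0.094 (SE, limma, adjusted p = 5.11e-11) under adenine, 2.56 ± 0.094 (SE, limma, adjusted p = 1.18e-12) under SAM, and, not called, 0.04 ± 0.094 (SE, limma, adjusted p = 0.763) under DZ.

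Kif20b (chr19:34899752-34953149), a kinesin of the late spindle, rose least of the kinesins, yet by more than Tpx2 or Smc4. By dish, its log2 CPM was 4.86, 4.86, and 4.82 in CTL and 4.91, 5.06, and 4.98 in DZ. It was 6.42, 6.50, and 6.55 in adenine and 6.85, 6.94, and 6.66 in SAM. No groups overlapped, and the SAM dishes spread most, with SAM replicate 3 lowest. On the log2 scale, the fold change was 1.64 ± 0.06 (SE, limma, adjusted p = 2.01e-12) under adenine, 1.97 ± 0.06 (SE, limma, adjusted p = 1.41e-13) under SAM, and, not called, 0.14 ± 0.06 (SE, limma, adjusted p = 0.0619) under DZ. Kif20a, Kif15, and Kif11 had negative values under DZ (-0.22, -0.15, and -0.13), none of them called.

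Spindle assembly and cytokinesis are served by TPX2, which activates Aurora A and nucleates microtubules, by the cross-linkers NUSAP1 and PRC1, and by anillin (Anln), ECT2, and RACGAP1 at the cleavage furrow. All 6 genes rose under adenine (median log2 fold change 1.44) and SAM (1.70), and Tpx2, Nusap1, and Prc1 rose under DZ. The Prc1 call under DZ (0.22) was lost with no variance trend, robust empirical Bayes, median centring, a separate model per contrast, or voom, and without any 1 dish other than DZ replicate 1. Nusap1 (chr2:119448779-119481725) had log2 CPM of 4.24, 4.18, and 4.31 in CTL and 4.30, 4.49, and 4.52 in DZ. It was 5.79, 5.79, and 5.79 in adenine and 6.40, 6.39, and 6.44 in SAM. DZ and CTL overlapped, and adenine and SAM were each apart. The fold change on the log2 scale was 1.55 ± 0.053 (SE, limma, adjusted p = 1.18e-12) under adenine, 2.17 ± 0.053 (SE, limma, adjusted p = 1.44e-14) under SAM, and 0.19 ± 0.053 (SE, limma, adjusted p = 0.00621) under DZ. The DZ call was lost with no variance trend, a separate model per contrast, or voom, and without DZ replicate 2, DZ replicate 3, CTL replicate 1, or CTL replicate 2. Nusap1 overlaps Oip5 on the opposite strand, which rose by 1.46 under SAM.

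Tpx2 (chr2:152689854-152737245) had the largest value of the members under DZ and the smallest of its group under adenine and SAM. Its log2 CPM was 6.87, 6.84, and 6.84 in CTL and 7.24, 7.48, and 7.44 in DZ. It was 7.92, 8.01, and 7.99 in adenine and 8.28, 8.26, and 8.24 in SAM. The 4 groups were all apart. Its log2 fold change was 0.54 ± 0.047 (SE, limma, adjusted p = 1.88e-07) under DZ, 1.13 ± 0.047 (SE, limma, adjusted p = 8.96e-12) under adenine, and 1.41 ± 0.047 (SE, limma, adjusted p = 4.32e-13) under SAM, so that Tpx2 under DZ had risen 1.45-fold and under SAM 2.65-fold.

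Anaphase begins when CDC20 and the ubiquitin-conjugating enzyme UBE2C, with the anaphase-promoting complex, mark securin (Pttg1) for destruction and release separase (Espl1), while shugoshin (Sgo1) protects cohesin at the centromere until then. Under SAM all 5 genes rose (median log2 fold change 2.01), under adenine all but Pttg1 did (median 1.61), and under DZ Sgo1 did, by 0.32. Espl1 (chr15:102204701-102233535) had log2 CPM of 4.84, 4.63, and 4.61 in CTL and 4.71, 5.11, and 4.96 in DZ. It was 6.74, 6.70, and 6.70 in adenine and 7.17, 7.18, and 7.02 in SAM. CTL and DZ overlapped, and adenine and SAM did not overlap any other group. The log2 fold change was 2.02 ± 0.083 (SE, limma, adjusted p = 6.35e-12) under adenine, 2.43 ± 0.083 (SE, limma, adjusted p = 4.62e-13) under SAM, and, not called, 0.24 ± 0.083 (SE, limma, adjusted p = 0.0234) under DZ.

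Pttg1 (chr11:43311071-43321000), which encodes the inhibitor that separase is held by, differed from Espl1 in size. The log2 CPM values were 4.13, 4.13, and 4.19 in CTL and 4.04, 4.03, and 4.08 in DZ. It was 4.25, 4.42, and 4.33 in adenine and 4.50, 4.59, and 4.78 in SAM. The DZ dishes lay below CTL, the adenine dishes above it, and the SAM dishes above those. The fold change on the log2 scale was 0.47 ± 0.068 (SE, limma, adjusted p = 1.07e-05) under SAM, while 0.19 ± 0.068 (SE, limma, adjusted p = 0.0229) under adenine and -0.10 ± 0.068 (SE, limma, adjusted p = 0.237) under DZ were not called. With plain read totals as scaling, the adenine value was 0.25 and called (limma, adjusted p = 0.00433). The Espl1 rise was thus 5.39-fold and the Pttg1 rise 1.39-fold under SAM.

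Condensin folds chromatin into loops, with SMC2 and SMC4 as its motor pair, Ncapd2, Ncaph, and Ncapg as the other subunits of condensin I, and Ncapg2 as a subunit of condensin II, and topoisomerase II alpha (Top2a) untangles the DNA. All 7 genes rose under adenine (median log2 fold change 1.56) and SAM (1.88), and Smc2, Smc4, and Ncapg2 rose under DZ. Smc2 (chr4:52439214-52488264) had log2 CPM of 4.83, 4.92, and 4.85 in CTL and 5.30, 5.44, and 5.35 in DZ. It was 6.80, 6.89, and 6.90 in adenine and 7.03, 7.07, and 6.91 in SAM. All 4 groups were apart, although SAM replicate 3 was only just above the adenine dishes. Its log2 fold change was 0.50 ± 0.048 (SE, limma, adjusted p = 5.34e-07) under DZ, 2.00 ± 0.048 (SE, limma, adjusted p = 3.39e-14) under adenine, and 2.14 ± 0.048 (SE, limma, adjusted p = 5.63e-15) under SAM.

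Smc4 (chr3:68911944-68941960), the partner of SMC2 in the motor pair, rose least of the condensin genes. By dish, its log2 CPM was 7.30, 7.32, and 7.29 in CTL and 7.39, 7.52, and 7.50 in DZ. It was 8.06, 8.13, and 8.19 in adenine and 8.42, 8.46, and 8.37 in SAM. Here too the 4 groups did not overlap. On the log2 scale, the fold change was 0.17 ± 0.038 (SE, limma, adjusted p = 0.00155) under DZ, 0.83 ± 0.038 (SE, limma, adjusted p = 2.77e-11) under adenine, and 1.12 ± 0.038 (SE, limma, adjusted p = 5.39e-13) under SAM, the DZ call being lost without DZ replicate 2. The 2 genes of 1 heterodimer thus rose 3.99-fold and 1.77-fold under adenine.

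**Figure D3:**
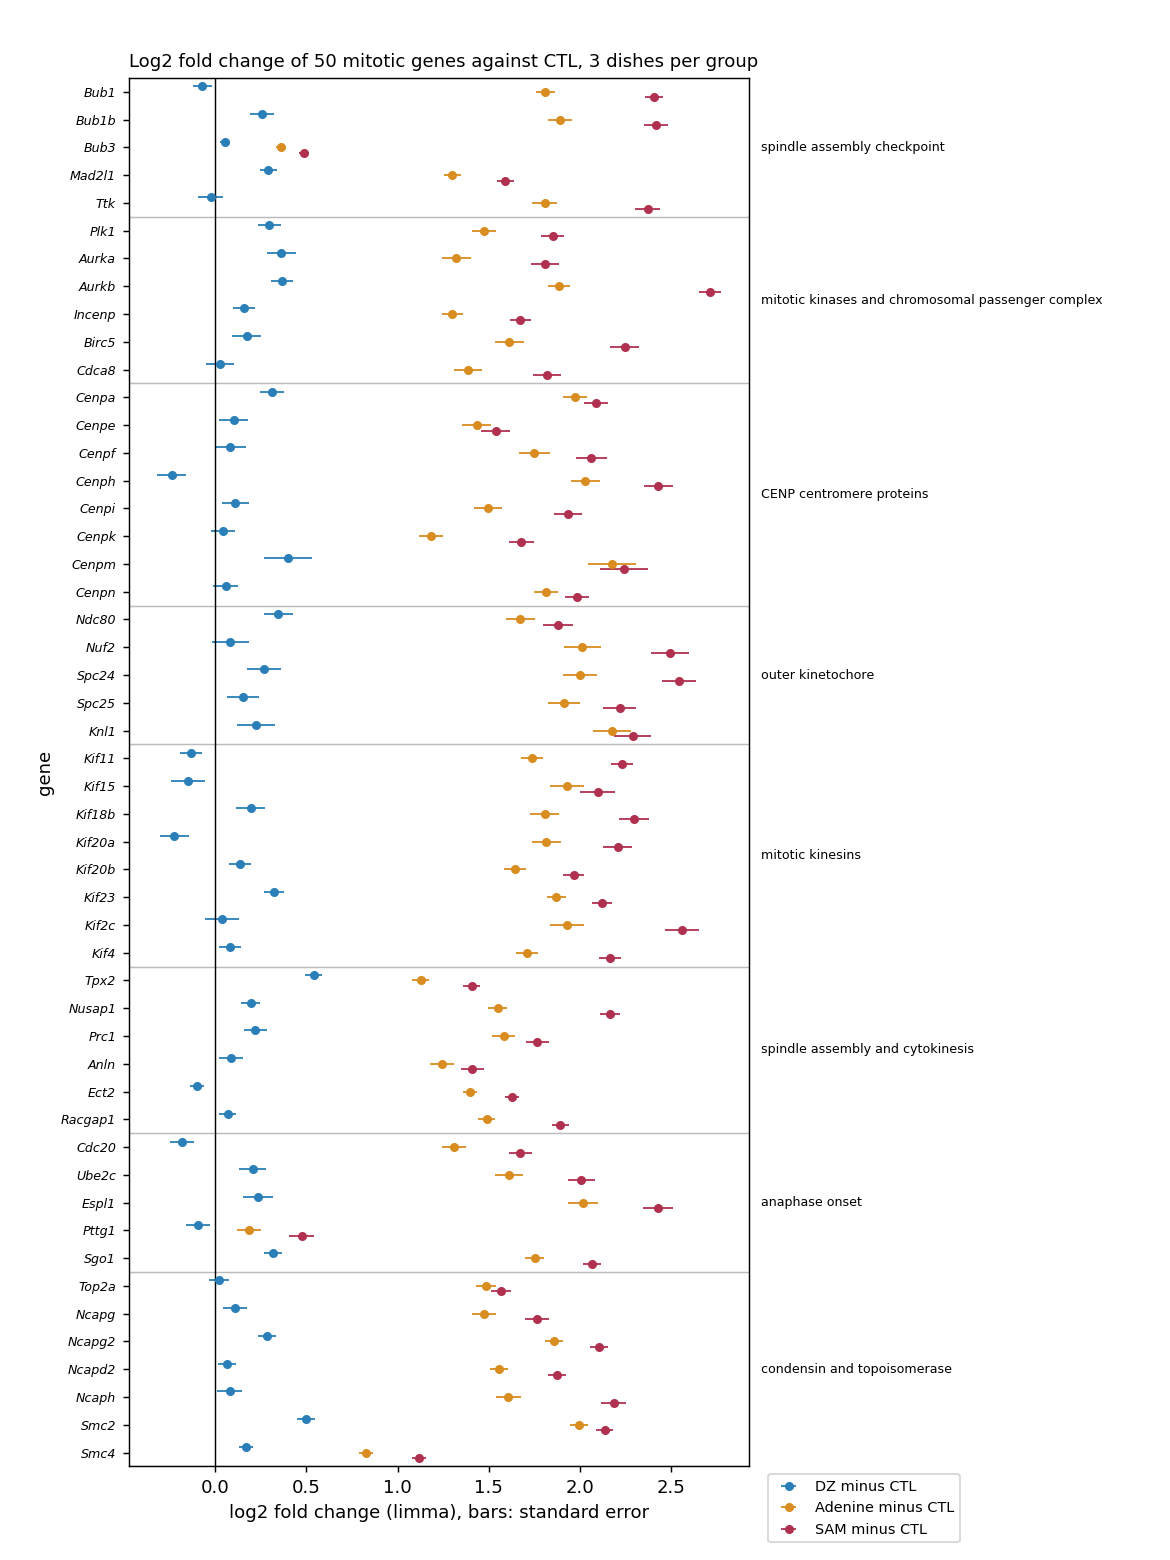
Log2 fold change against CTL (horizontal axis, with standard error bars from limma) of each of the 50 genes (vertical axis, grouped by role) under DZ, adenine, and SAM, with 3 dishes per group. The adenine and SAM points lie far to the right of 0 except for Bub3 and Pttg1, the SAM point is the rightmost for every gene, and the DZ points lie between -0.24 and 0.54.

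Transcripts of the subunits of a complex were not at equal levels. In condensin I, the NDC80 complex, and centralspindlin the gap between the highest and the lowest was smaller in adenine and SAM than in CTL. The gap was smaller in DZ than in CTL in centralspindlin, the chromosomal passenger complex, and the CENP-H/I/K/M complex. For the chromosomal passenger complex it was also smaller in adenine, whereas the SAM dishes overlapped CTL. For the CENP-H/I/K/M complex it was not smaller in adenine or SAM. The complexes named first were singled out by these values. Levels are given here as CPM per kb of the canonical transcript. In CTL they ranged from 36.5 for Smc4, 28.0 for Racgap1, and 27.5 for Tpx2 down to 2.25 for Kif15, 1.70 for Cenpf, and 1.54 for Knl1. In condensin I the ratio of the highest subunit, Smc4, to the lowest, Ncapg, was 7.37 ± 0.38 in CTL, 7.69 ± 0.55 in DZ, 4.69 ± 0.068 in adenine, and 4.69 ± 0.022 in SAM (mean of the dish ratios ± SD, n = 3). The dish ratios ran from 6.96 to 7.70 in CTL and from 4.61 to 4.73 in adenine, with no overlap. In the NDC80 complex the same ratio was 2.30 ± 0.28 in CTL, 2.75 ± 0.10 in DZ, 1.81 ± 0.11 in adenine, and 1.58 ± 0.062 in SAM, with Nuf2 lowest in every group and Spc24 in place of Ndc80 as the highest in SAM. In centralspindlin, the pair of Racgap1 and Kif23, it was 2.87 ± 0.13 in CTL, 2.41 ± 0.12 in DZ, 2.20 ± 0.041 in adenine, and 2.46 ± 0.057 in SAM, and the CTL dishes (2.76 to 3.02) overlapped no other group. In the chromosomal passenger complex the ratio was 2.29 ± 0.043, 2.00 ± 0.12, 1.91 ± 0.087, and 2.22 ± 0.20 in the same order of groups, with Aurkb lowest in CTL and Incenp in SAM. In the CENP-H/I/K/M complex it was 2.24 ± 0.43 in CTL, 1.44 ± 0.14 in DZ, 2.44 ± 0.10 in adenine, and 2.51 ± 0.14 in SAM. The DZ dish ratios (1.28 to 1.57) lay below those of CTL (1.96 to 2.74), which overlapped adenine and SAM. With 3 dishes against 3, an exact permutation test cannot go below p = 0.10, so no test was made of these ratios.

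**Figure D4:**
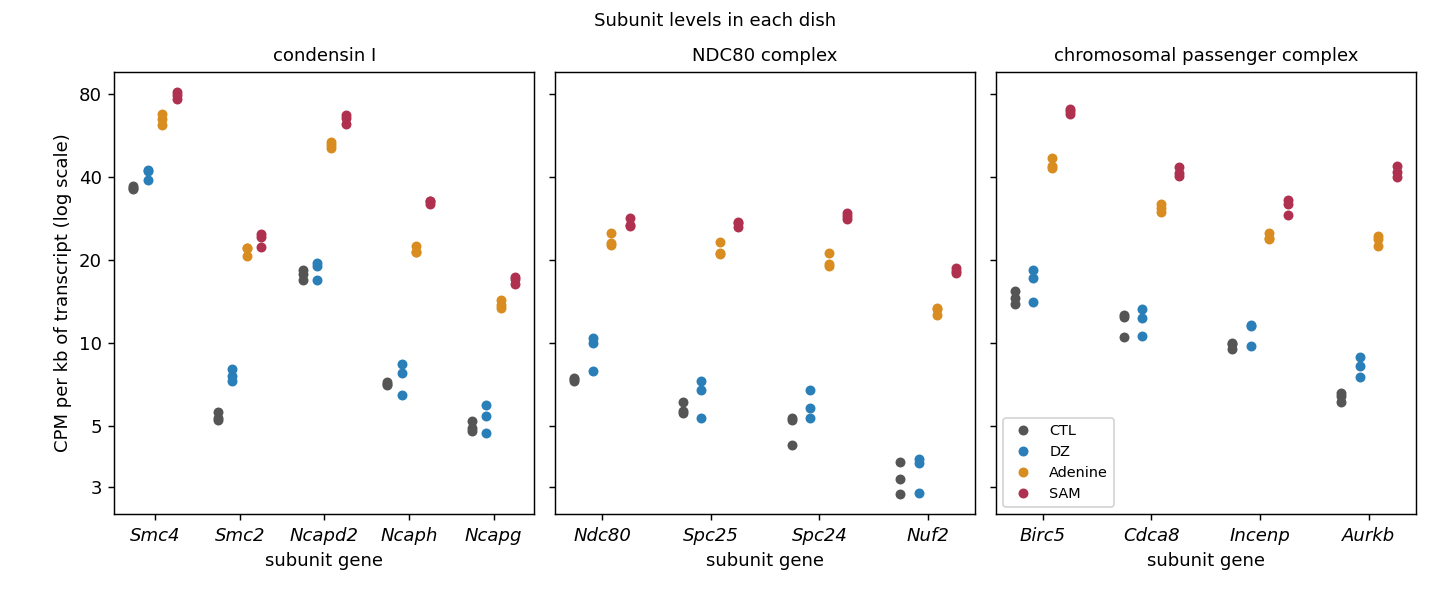
CPM per kb of transcript on a log scale (vertical axis) of each subunit gene (horizontal axis) of condensin I, the NDC80 complex, and the chromosomal passenger complex, with 1 point per dish. In condensin I, Smc4 starts at 36.5 and ends at 79.1 CPM per kb while Ncapg goes from 4.96 to 16.9.

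Over the 50 members, those lower in CTL rose more under SAM, with Pearson's r = -0.566 and Spearman's rho = -0.607 between the log2 CPM in CTL and the log2 fold change, and r = -0.543 and rho = -0.554 with the level per kb. These correlations are across genes of the same libraries, which are not independent replicates, and both axes contain the CTL values, so they are given as a description. For transcript length and the fold change, Pearson's r was -0.074.

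SAM and adenine were given at the same concentration, and they were compared directly. Of the 50 members 39 were higher in SAM and none was lower, where 42.7% of all genes were called, 20.8% higher and 22% lower. No member differed by 1 or more, as 0.461% of all genes did in the upward direction. The median difference was 0.34 on the log2 scale, with 0 over all genes, and the largest was 0.83 ± 0.061 (SE, limma, adjusted p = 3.19e-08) for Aurkb. The group means stood in the order CTL, adenine, SAM for all 50 members, and every SAM dish was above every adenine dish in 47 of them (30.6% of all genes), all but Cenpe, Knl1, and Top2a. The 11 members that were not called, Cenpa, Cenpe, Cenpm, Cenpn, Ndc80, Knl1, Kif15, Prc1, Anln, Top2a, and Smc2, had differences between 0.067 and 0.21. Checkpoint genes had the largest median difference (0.53) and CENP genes the smallest (0.24). In the checkpoint, kinase and passenger complex, and anaphase onset groups every gene was called higher in SAM, whereas 4 of the 8 CENP genes were. A call that required a log2 difference of at least 0.5 was made in 9 members, and the share of all genes under that requirement is not given here.

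**Figure D5:**
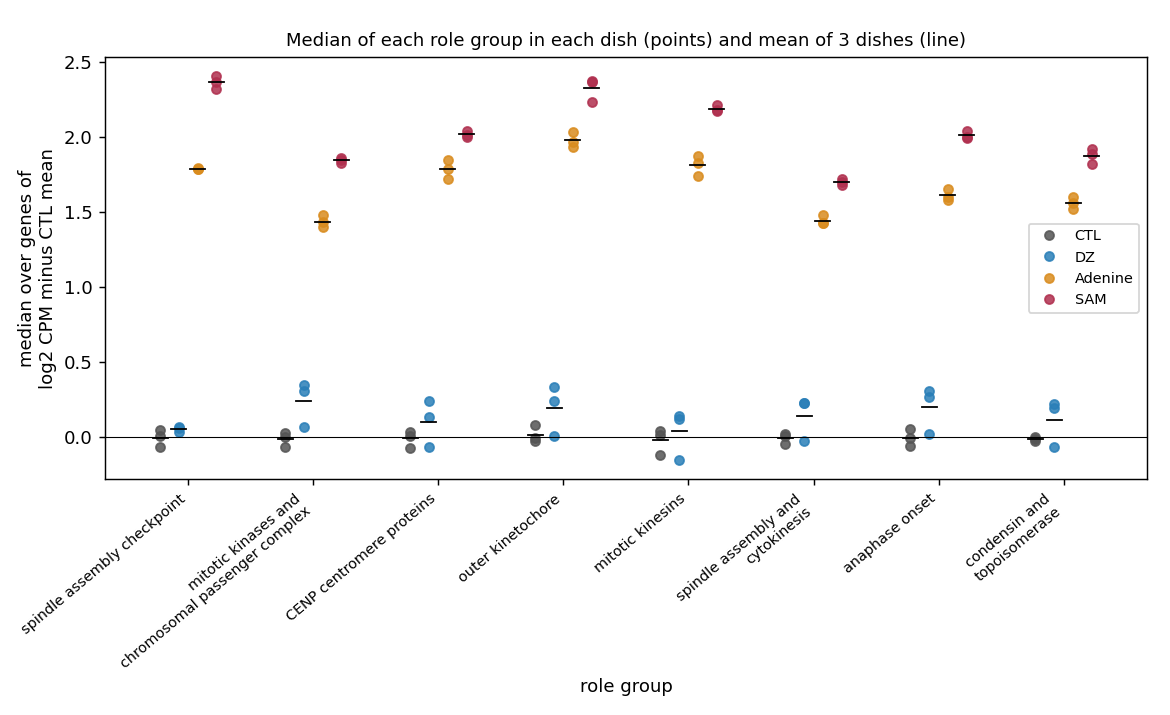
Median over the genes of each of 8 role groups (horizontal axis) of the log2 CPM minus the CTL mean (vertical axis), as 1 point per dish with a line at the mean of the 3 dishes of CTL, DZ, adenine, and SAM. In every role group the SAM dishes are above the adenine dishes, those of the outer kinetochore and the checkpoint reach highest, and 1 DZ dish stays near or below 0 in each.

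DZ was given at another concentration than adenine and SAM, and its dishes were uneven. DZ replicate 1 was the lowest DZ dish in 46 of the 50 members. Its median over the members was -0.043 relative to the CTL mean, against 0.23 and 0.21 for DZ replicates 2 and 3. The share of all genes in which this dish was lowest was not computed, so whether it was low beyond the members was not tested. The 15 genes called under DZ were Bub1b, Mad2l1, Plk1, Aurka, Aurkb, Cenpa, Ndc80, Kif23, Tpx2, Nusap1, Prc1, Sgo1, Ncapg2, Smc2, and Smc4, with log2 fold changes of 0.17 for Smc4 to 0.54 for Tpx2. Without DZ replicate 1, 25 members were called, all of them higher and the 15 among them, and the median was 0.21. Without DZ replicate 2, 12 members were called, 10 of the 15 and, lower, Ect2 and Cenph. Without DZ replicate 3, 12 were called, 11 of the 15 and, lower, Kif20a. The shares of all genes called with a dish left out are not given here, so these counts are not set against all genes. In the full data 30% of the members were called, all higher, where 45.9% of all genes were called and 22.6% were called higher. With 1 dish left out, between 10 and 25 members were called higher, so the share higher is not read as a trait of the members. Set directly against adenine, all 50 members were lower in DZ (median -1.50, where 64.3% of all genes were called and 32.2% were called lower), and all 50 were higher in SAM than in DZ (median 1.83, where 69% of all genes were called and 34% were called higher). For all 50 members every SAM dish was above every DZ dish, a separation found in 37.8% of all genes.

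Other genes of the same machinery were listed by function. Of 31 further centromere and kinetochore genes in the table, 30 rose and none fell under both adenine and SAM (median log2 fold change under SAM 1.50), and under DZ 11 rose and 2, Cenpc1 and Cenpw, fell. In percent, 96.8% were higher under adenine and under SAM, and 35.5% were higher and 6.45% lower under DZ. Over all genes, 30.6% were higher under adenine and 33.7% under SAM, and 22.6% were higher and 23.4% lower under DZ. Hjurp, the chaperone of CENP-A, Sgo2a, a shugoshin, and Zwilch, of the checkpoint's RZZ complex, rose by 1.50, 2.31, and 1.74 under SAM, and Zwint, a kinetochore linker, did not pass the test (0.031, limma, adjusted p = 0.355). Cenps was not in the table. All 32 further spindle and cytokinesis genes rose under adenine and under SAM (median 2.15 under SAM), and under DZ 9 rose and 2, Hmmr and Numa1, fell. The share higher under DZ, 28.1%, was near the 22.6% of all genes, and 6.25% were lower, beside 23.4%. Among these spindle and cytokinesis genes, Mastl, a kinase that keeps cells in mitosis, and the spindle proteins Ckap2 and Ckap2l rose by 2.18, 2.24, and 2.30 under SAM.

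Complexes whose subunits also work outside mitosis had smaller medians. Of 16 cohesin and condensin II genes, 9 rose and 3 fell under SAM (median 0.25), 9 rose and 2 fell under adenine, and 1 rose and 2 fell under DZ. In percent that is 56.2% higher and 18.8% lower under SAM, 56.2% and 12.5% under adenine, and 6.25% and 12.5% under DZ, beside 33.7% and 35.7%, 30.6% and 31%, and 22.6% and 23.4% of all genes. Esco2, which acetylates cohesin in S phase, rose by 2.95, and the condensin II genes Ncapd3 and Ncaph2 rose by 1.48 and 0.81, whereas Stag2, Pds5a, and Hdac8 fell by 0.20, 0.23, and 0.92. Of 17 genes of the anaphase-promoting complex and its partners, 13 rose and 1, Anapc16, fell under SAM (median 0.35), 12 rose and 1, Anapc7, fell under adenine, and 4 rose and 3 fell under DZ. The shares higher were 76.5% under SAM and 70.6% under adenine, and those under DZ, 23.5% higher and 17.6% lower, were near the shares of all genes. The activator Fzr1, the inhibitor Fbxo5, and the subunit Anapc5 rose by 1.06, 1.76, and 0.50 under SAM. The genes that fell or did not pass the test were named here after their values had been seen.

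The regulators of mitotic entry and of mitotic transcription, 18 genes, gave 15 rises and no fall under adenine, 15 rises and 1 fall under SAM (median 1.43), and 8 rises and 1 fall under DZ. The shares higher were 83.3% under adenine and under SAM and 44.4% under DZ, beside 30.6%, 33.7%, and 22.6% of all genes. The share lower was 5.56% under SAM and under DZ, beside 35.7% and 23.4% of all genes. Cdk1 and its cyclins Ccna2 and Ccnb2 rose by 1.83, 2.26, and 2.16 under SAM, and Foxm1 and Mybl2, which activate genes with a CHR element, by 2.34 and 2.25. Cdkn1a, the cyclin-dependent kinase inhibitor p21, fell by 1.16 under SAM and by 0.75 under DZ and rose by 0.54 under adenine. Of the 7 genes of the list that encode parts of DREAM, 5 rose under SAM, namely Lin9, Rbl1, Lin54, Rbl2, and Lin37 by 1.46, 1.37, 1.03, 0.51, and 0.23. Under adenine Lin9, Rbl1, Lin54, and Rbl2 rose by 1.22, 1.20, 0.96, and 0.41, and under DZ Lin54 and Rbl1 rose by 0.52 and 0.25. Lin52 and E2f4 did not pass the test under any treatment. Foxm1, Mybl2, Cdkn1a, and the DREAM genes were singled out after their values had been seen.

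DNA replication genes, which act before mitosis, rose as broadly. Of 30 genes 29 rose and 1, Mcm2, fell under adenine and under SAM (median 1.61 under SAM), and 20 rose and 1, Mcm7, fell under DZ. Over all genes, 30.6% were called higher under adenine and 33.7% under SAM. Pold1, of DNA polymerase delta, Mcm4, of the replicative helicase, and the nuclease gene Fen1 rose by 1.74, 1.76, and 1.63 under SAM and by 0.24 each under DZ. Under DZ 66.7% of the replication genes were called higher, beside 30% of the mitotic genes and 22.6% of all genes. TTTGAA was found in 5 of the 24 replication genes with a promoter window (20.8%), in 16 of the 27 further spindle and cytokinesis genes (59.3%), in 10 of the 27 further centromere and kinetochore genes (37%), in 5 of the 11 regulators of mitotic entry and transcription (45.5%), in 4 of the 11 cohesin and condensin II genes (36.4%), and in 3 of the 16 anaphase-promoting complex genes (18.8%).

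Overlapping genes could take reads from, or add reads to, 13 members, which overlap 15 genes of the table, all on the opposite strand. The median log2 fold change of these 15 genes under SAM was 0.11, with a range from -1.02 to 1.46, and 2 of them, Cmc2 and Oip5, reached 1. The members that rose least are among the 13. Bub3 overlaps Fgfr2 (mean log2 CPM in CTL 6.20, log2 fold change under SAM 0.14), and Pttg1 overlaps Slu7 (6.26 and -0.50). Whether reads of these neighbours bear on the small rises was not tested.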

How the data were processed

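Polyadenylated RNA of 12 dishes was sequenced from a stranded library. Trimming (Trimmomatic), alignment to GRCm39 (HISAT2, GENCODE vM27), and quantification (StringTie) were done by the authors, who kept genes that reached 1 CPM in each sample and deposited log2 CPM from edgeR on normalized library sizes (prior count of 2). Versions and the strand setting of the counting are not given in the sources used here. Taking off the prior count returned whole reads for 100% of the values, with a largest distance of 0.0020, and these gave the depth. Because StringTie works from coverage, these reads are estimates.

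The deposited log2 values were fitted with limma 3.58.1 in R 4.3.3 (lmFit and trended eBayes, 1 model for the 12 libraries), with 6 contrasts and Benjamini-Hochberg adjustment over 12591 genes at an FDR of 0.01. On simulated data with 200 changed genes per treatment, 94.4% (DZ), 95.8% (adenine), and 98.5% (SAM) of changes of 0.5 on the log2 scale were recovered, and 100% of larger ones, while 1.51%, 2.96%, and 0.5% of the calls were false. The simulation gave all genes the same dispersion and changed far fewer genes than were called in the data. These rates need not hold for the data. Each role group is described through the genes with the largest and smallest mean of the adenine and SAM log2 fold changes, and each further list through up to 3 genes with the smallest adjusted p under SAM. The members and lists were chosen with earlier results of these data known. Symbols, positions, and transcript lengths come from GENCODE vM39 (12575 of 12591 identifiers matched), and promoter windows from RefSeq on GRCm38.p6. Groups of 3 dishes were not tested for outlying values. Tables and plots were made in Python 3.11.15 (pandas 2.3.3, matplotlib 3.10.9).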

Additional observations from a re-analysis of the deposited data

How the results depend on the processing

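The numbers of members called under adenine, under SAM, and in DZ against adenine and SAM against DZ stayed between 48 and 50 in the 12 alternative settings (no variance trend, robust empirical Bayes, a mean log2 CPM of at least 3, median centring, plain read totals, 1 CPM added, an FDR of 0.05, a required log2 fold change of 0.5, a model per contrast, a replicate block, voom on the recovered reads, and protein-coding genes only). Under DZ, 24 members were called at an FDR of 0.05, 4 of them lower, and 1 with a required fold change of 0.5. In SAM against adenine, 9 members were called with that requirement. A changed threshold or a dish left out also changes the share of all genes called. Those shares are not given here, so the counts show only how far the calls of the members depend on the setting. Leaving out 1 dish at a time gave 12 to 25 members called under DZ (10 to 25 higher, 0 to 2 lower), 49 under adenine, 50 under SAM, 36 to 38 in SAM against adenine, 49 to 50 in DZ against adenine, and 50 in SAM against DZ. Plain read totals moved the median of all genes under SAM from -0.015 to 0.107 and that of the members from 2.07 to 2.19. The replicate numbers did not pair the dishes, with correlations of same-numbered deviations between -0.142 and 0.181, and the replicate block left 15 members called under DZ and 38 in SAM against adenine, without Spc25. Members that were not called in DZ minus CTL changed the sign of their log2 fold change when 1 dish was left out, with ranges over the dishes left out of -0.03 to 0.091 for Top2a, -0.007 to 0.094 for Cenpk, -0.01 to 0.196 for Cenpf, -0.014 to 0.212 for Nuf2, -0.036 to 0.175 for Kif2c, -0.057 to 0.111 for Cdca8, -0.003 to 0.156 for Kif4, -0.001 to 0.187 for Ncaph, and -0.091 to 0.052 for Ttk. The cause was not tested.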
